A study of Anas platyrhynchos with 6 samples.

Results

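Basement membranes, elastic fibres and the proteoglycans around collagen and cells were followed in duck ovaries through 47 genes. They are the genes whose symbol in the deposited table belongs to the laminins, nidogens, agrin, fibrillins, elastin, fibulins, emilins, small leucine-rich proteoglycans, versican and its link proteins, syndecans, glypicans or matrilins. They were matched by symbol, out of 17169 transcripts, with 1 transcript per symbol. Some genes of these families that were searched for, such as HSPG2 (perlecan) and BGN (biglycan), were not found by symbol. The sums and shares below leave them out. The choice of these families was made with earlier results of these data known. GPC5 had a further transcript, and its row with the higher mean was used. Of the 47 genes, 40 averaged 1 FPKM or more over the 6 libraries and entered the test.

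Laminins are trimers of an alpha, a beta and a gamma chain that polymerise into the sheet of a basement membrane, to which nidogens and agrin bind. In the ovary such a membrane separates the granulosa layer of a follicle from the theca. Fibrillins form microfibrils on which elastin is deposited with the help of fibulins and emilins, and small leucine-rich proteoglycans bind to collagen fibrils in the stroma. Versican binds hyaluronan, while syndecans and glypicans hold heparan sulfate at the cell surface, where they act as coreceptors for growth factors and matrix.

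The ovaries came from 6 ducks (Anas platyrhynchos) of a full-sib family, killed at 71 weeks of age after their feed was withheld. Of these ducks 3 had laid many eggs (the high egg number group, HEN) and 3 had laid few (the low egg number group, LEN), with 1 library per duck and no treatment in the labels. Levels are FPKM, which scale fragments by transcript length and by the fragments of the library, so that levels of different genes can be compared within a library. The steps between low values give a depth of 18213744 to 19831761 fragments, at which 3 fragments on 1 kb of transcript are worth 0.151 to 0.165 FPKM. The labels name no region or follicle stage of the ovary and no batch.

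The libraries of HEN replicates 2 and 3 stood apart from the other 4. They correlated with each other at 0.965 across genes on the log2(FPKM + 1) scale and at 0.634 to 0.779 with the rest. Their 12 oocyte markers summed to 11.25 and 12.7 FPKM, against 788 FPKM in HEN replicate 1 and 817 to 1885 FPKM in LEN. LHX8 was listed at 0 in both, DDX4 and DAZL at 0 in HEN replicate 2, and 11 of the 12 oocyte markers were lower in both than in any LEN ovary. Over all transcripts tested, 48.9% were lower in both HEN replicates 2 and 3 than in any LEN ovary, and 21.6% were higher in both. In these 2 libraries the 7 granulosa markers summed to 124 and 139 FPKM. They summed to 268 to 289 FPKM in the other 4 libraries, and none was at 0 in any library. Of these 7, only FOXL2 and WT1 were lower in both HEN replicates 2 and 3 than in any LEN ovary. NR5A2 was higher in both, and the other granulosa markers were neither. The theca enzyme gene CYP17A1 had 0.0945 and 0.146 FPKM in HEN replicates 2 and 3 and 33.5 FPKM or more elsewhere. Its theca and stroma list of 13 markers summed to 1094 to 1669 FPKM in HEN and 610 to 1486 FPKM for LEN. Of the 12 tested markers of that list, 4 were lower in both HEN replicates 2 and 3 than in any LEN ovary, CYP17A1 among them. Another 5 were higher in both, COL1A2 and COL3A1 among them. The 7 surface epithelium markers gave 166 and 123 FPKM in HEN replicates 2 and 3 but 344 to 488 FPKM elsewhere. EPCAM and CLDN1 were among the 4, of 6 tested, that were lower in both these libraries than in any LEN ovary. KRT7 went the other way, with 49.4 to 78.5 FPKM for HEN and 14.05 to 32.45 FPKM for LEN, and KRT19 overlapped between the groups. The 3 erythrocyte markers had their highest sum in HEN replicate 3, at 507 FPKM, of which HBM alone had 496 FPKM. The 12 leukocyte markers summed to 744 to 1461 FPKM in HEN and 376 to 735 FPKM in LEN, and the 8 smooth muscle markers to 1410 to 1481 and 510 to 1054 FPKM, with no marker of either list at 0 in any library. Within the leukocyte sum, CD74 alone had 522 to 724 FPKM in HEN and 246 to 512 FPKM in LEN. The HEN minus LEN difference was positive for 9 leukocyte markers and negative for 3, the lymphocyte genes CD3E, CD4 and CD79B. Only 4 of the 12 were higher in each HEN ovary than in any LEN ovary, where 6.92% of all transcripts tested were. Of the 8 smooth muscle markers 5 were, and ACTA2 alone had 479 to 866 FPKM in HEN and 267 to 477 FPKM in LEN. SYNPO2 went the other way in HEN replicates 2 and 3, at 14.5 and 21.5 FPKM against 26.1 to 37.95 FPKM in LEN. ACTG2 and MYH11 overlapped, with ACTG2 at 35.9 FPKM in HEN replicate 2 and 61.8 FPKM or more in LEN. The 13 endothelial markers summed to 197 to 319 FPKM in HEN and 156 to 242 FPKM in LEN, with none at 0. The part of these cell types in the differences below was not tested. In RNA from ovary tissue of mixed cell types, fewer cells of a type and less RNA per cell cannot be told apart.

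The comparison asks how matrix genes differ between ovaries of many and of few eggs. Decorin (DCN), elastin (ELN), EMILIN2 and versican (VCAN) were higher in each HEN ovary than in any LEN ovary, and so were FBN1, LUM, SDC2, SDC4, GPC4 and HAPLN1. LAMA2 was lower in each HEN ovary than in any LEN ovary. The alpha chains LAMA1, LAMA3, LAMA4 and LAMA5, the beta chains, LAMC1 and LAMC3 overlapped between the groups, as did the nidogens and agrin. None of these genes passed the test across all transcripts.

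In numbers, limma called 0 of the 40 tested genes at an adjusted p under 0.05, where 0% of all 13328 transcripts were called, and the smallest adjusted p among them was 0.226. With no adjustment, 7 genes were higher and 4 lower in HEN at a p under 0.05, where all transcripts gave 5.10% higher and 16.9% lower. The higher genes were SDC4, SDC2, FBN1, LUM, GPC4, ELN and EMILIN2, and the lower ones LAMA2, FBLN5, GPC3 and FBN3. Among the tested genes, in the values as deposited, the groups did not overlap for 10 with HEN above and for 1 with HEN below. Of all transcripts tested, 6.92% and 13.4% did so. Of the 10, LUM, GPC4, SDC2 and DCN were apart by a small margin, for LUM 24.37 FPKM in HEN replicate 1 against 24.05 FPKM in LEN replicate 1. Of the 7 untested genes, GPC5, GPC6, MATN1 and MATN3 were lower in each HEN ovary than in any LEN ovary. Their levels were under 1 FPKM, and none of the 7 was higher. The shares above cover tested transcripts only, so no share stands beside this count. For GPC5, MATN1 and MATN3, and for HAPLN1 among the tested genes, the groups were apart by less than 3 fragments on a transcript of 1 kb. A positive difference was seen for 24 of 40, against 37.1% of all transcripts. Differences are HEN minus LEN on the log2(FPKM + 1) scale throughout, as fitted by limma. The median difference was 0.19 over the tested genes and -0.24 over all transcripts. HAPLN1 and FBLN7 reached the 1 FPKM filter through their HEN levels, and their places in these counts follow in part from that.

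The values as deposited have a median difference below 0 over all transcripts, and upper quartile, trimmed mean and quantile scaling shift it. Rescaling each library to the same total left it at -0.24. After upper quartile scaling the median of all transcripts was 0.03 and that of the tested matrix genes 0.48. The unadjusted split was then 10 higher and 1 lower, against 9.21% and 12.9% of all transcripts, and 28 of the 40 had a positive difference, against 51.4% of all transcripts. No tested gene passed after upper quartile, trimmed mean or quantile scaling.

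**Figure D1:**
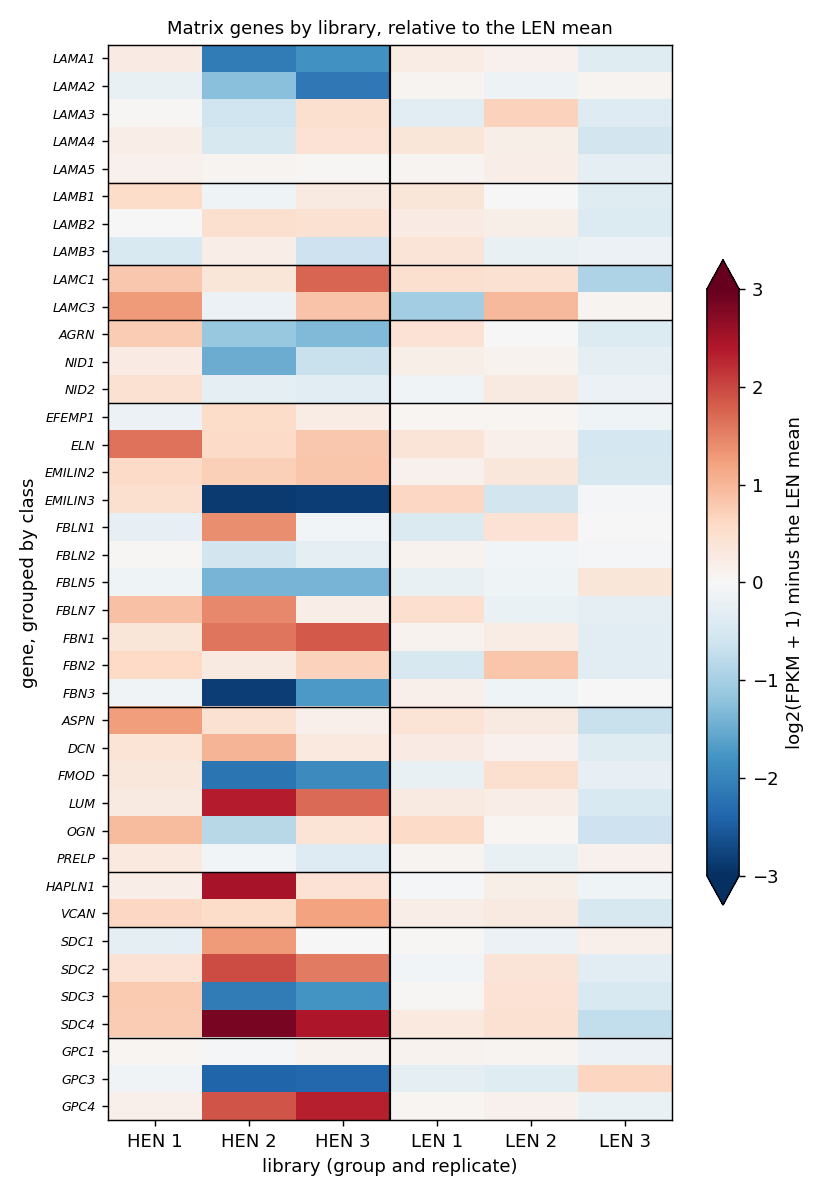
Each row is 1 of 39 tested genes and each column 1 library, coloured by log2(FPKM + 1) minus the LEN mean of that gene, with lines between classes. HEN 2 and HEN 3 share the deep blue cells (LAMA1, EMILIN3, FBN3, FMOD, SDC3, GPC3) and the deep red ones (SDC4, LUM, GPC4), while HEN 1 is pale and mostly red, with ELN at 1.63.

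Which library carried a difference varied by gene. HEN replicate 1, whose oocyte markers summed to just below the LEN range, lay above all 3 LEN ovaries for 22 of the 40 genes, where 20.6% of all transcripts did so, and below all of them for 4, against 20.3%. Without HEN replicates 2 and 3 the median over the 40 genes was 0.29 and that of all transcripts close to 0. A positive difference was then seen for 30, against 49.8% of all transcripts, and 2 (ELN and ASPN) were higher and 0 lower at an unadjusted p under 0.05 (1.70% and 1.05% of all transcripts). There the lone HEN ovary is assumed to vary like the LEN ovaries. Without HEN replicate 1, limma called 5 as higher and 10 as lower, against 11.8% and 37.0% of all transcripts. The 5 higher genes were SDC4, SDC2, FBN1, LUM and GPC4. The 10 lower genes were LAMA1, LAMA2, AGRN, NID1, EMILIN3, FBLN5, FBN3, FMOD, SDC3 and GPC3. With library weights, which gave HEN replicate 1 the lowest weight of 0.114, 7 were called higher and 11 lower, against 16.5% and 43.0%. LEN replicate 3 had the lowest level of the 6 libraries for 18 of the 40 genes, where 22.4% of all transcripts were lowest there, and its oocyte markers were the highest at 1885 FPKM.

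**Figure D2:**
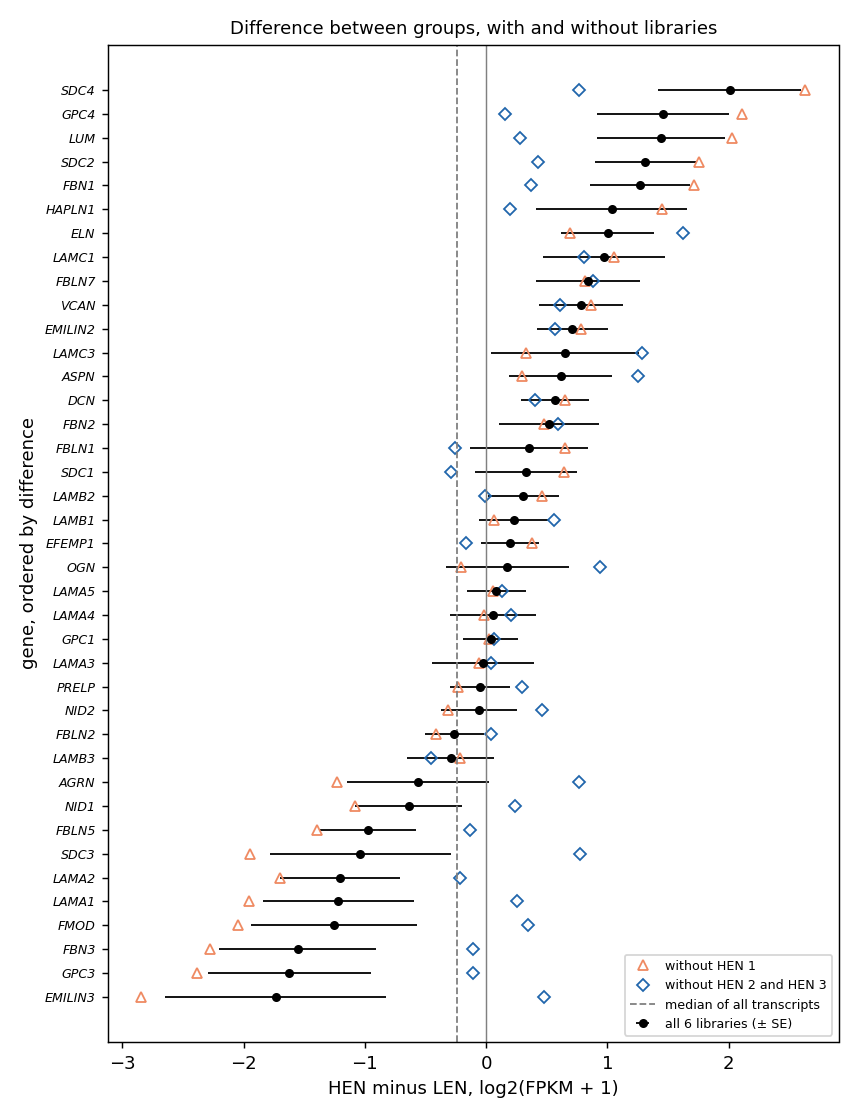
Black points give the HEN minus LEN difference on the log2(FPKM + 1) scale with its SE for 39 tested genes, triangles the same without HEN 1 and diamonds without HEN 2 and HEN 3, and the dashed line the median of all transcripts at -0.24. Triangles and diamonds lie close together for VCAN, EMILIN2 and DCN and far apart for SDC3, GPC3 and FBN3.

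Among the laminin alpha chains, LAMA4, a chain of vessels and mesenchyme, had the highest mean level. Its HEN levels were 18.9, 11.4 and 22.4 FPKM and its LEN levels 21.1, 18.6 and 10.9 FPKM, in the order of replicates 1, 2 and 3 used from here on, so that the groups overlapped fully. LAMA5, the chain widespread in adult basement membranes, was the most even, at 11.1 to 11.96 FPKM in HEN and 8.65 to 12.6 FPKM in LEN. LAMA3, a chain of epithelial anchoring laminins, ranged from 6.05 to 16.3 FPKM without separating the groups. Neighbours in the order LAMA4, LAMA5, LAMA3, LAMA1 and LAMA2 overlapped in their levels across libraries.

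LAMA1 and LAMA2 differed from the other alpha chains in HEN replicates 2 and 3. LAMA1, known from embryonic basement membranes, was at 13.5, 1.83 and 2.48 FPKM among the HEN ovaries and at 13.3, 12.4 and 8.44 FPKM among the LEN ovaries. HEN replicate 1 was thus the highest of the 6 libraries and the remaining HEN libraries the lowest. LAMA2, the chain of muscle and nerve sheaths, was at 4.54, 1.70 and 0.456 FPKM among the HEN ovaries and at 5.77, 4.75 and 5.82 FPKM among the LEN ovaries, a difference of -1.2 ± 0.49 (SE). Its groups did not overlap, although HEN replicate 1 was only just below LEN replicate 2. LAMA1 made up 4.94% and 5.63% of the summed alpha chain FPKM in HEN replicates 3 and 2, against 19.2% to 23.0% elsewhere.

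LAMB1 was the leading beta chain, at 38.97, 23.7 and 31.7 FPKM among the HEN ovaries and 34.1, 25.9 and 20.2 FPKM among the LEN ovaries, and held 61.9% to 80.3% of the beta chain sum. LAMB2, which replaces it in some mature membranes, lay between 5.97 and 11.9 FPKM. LAMB3, a partner of LAMA3 in epithelia, was at 1.35, 2.70 and 1.10 FPKM in the HEN ovaries and 3.25, 1.76 and 1.87 FPKM in the LEN ovaries. In every library the order was LAMB1, LAMB2, LAMB3, and none of the chains separated the groups.

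LAMC1, the gamma chain of most laminins, was the most abundant laminin gene, at 94.97, 69.99 and 182 FPKM among the HEN ovaries and 75.7, 74.1 and 27.7 FPKM among the LEN ovaries. HEN replicate 3 was the highest and LEN replicate 3 the lowest, while HEN replicate 2 lay below LEN replicates 1 and 2. The difference was 0.97 ± 0.50 (SE), with an adjusted p of 0.257 in limma. LAMC3 varied without regard to group, from 0.579 FPKM in LEN replicate 1 to 6.97 FPKM in HEN replicate 1, and its position overlaps the gene AIF1L.

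The linkers of the basement membrane had their lowest levels in HEN replicates 2 and 3. Nidogen NID1, which ties laminin to collagen IV, had HEN levels of 31.2, 8.66 and 16.2 FPKM and LEN levels of 29.8, 28.2 and 21.4 FPKM. Agrin (AGRN), a heparan sulfate proteoglycan that organises the neuromuscular synapse, reached 15.8, 3.49 and 2.98 FPKM across the HEN ovaries, with 12.4, 8.74 and 6.4 FPKM across the LEN ovaries. For both genes HEN replicate 1 was the highest of all libraries, so that the groups overlapped. Their differences were -0.64 ± 0.44 for NID1 and -0.56 ± 0.59 for AGRN (SE), and both turned positive without HEN replicates 2 and 3, at 0.24 and 0.77. NID2 stayed between 7.33 and 13.5 FPKM.

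Fibrillins split by member. FBN1 (scaffold KB743097.1 from 604204 to 749212), the main fibrillin of adult microfibrils, stood at 26.97, 64.5 and 75.7 FPKM for HEN and at 22.3, 24.4 and 16 FPKM for LEN. HEN replicate 1 was just above the LEN ovaries and the other HEN ovaries well above, a difference of 1.27 ± 0.41 (SE). FBN3, which in human is expressed mainly in fetal tissues, was at 6.85, 0.198 and 1.54 FPKM in the HEN ovaries and 8.35, 6.75 and 7.34 FPKM in the LEN ovaries, a difference of -1.55 ± 0.65 (SE). Its HEN replicate 1 lay within the LEN range. The ratio of FBN1 to FBN3 was 3.94, 326 and 49.1 in HEN and 2.67, 3.62 and 2.18 in LEN. FBN2 overlapped, between 1.5 and 5.22 FPKM.

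Elastin behaved otherwise. ELN was highest in HEN replicate 1, at 33.5 FPKM, with 15.6 and 18.5 FPKM in HEN replicates 2 and 3 and 13.5, 11.4 and 6.69 FPKM in LEN. All HEN values exceeded all LEN values, and the difference was 1.00 ± 0.38 (SE), or 1.63 without HEN replicates 2 and 3. The position of ELN overlaps an unnamed gene of the table. EMILIN2, a glycoprotein of the elastic fibre surface, had HEN levels of 10.4, 11.7 and 12.8 FPKM and LEN levels of 7.47, 8.74 and 4.55 FPKM, a difference of 0.71 ± 0.29 (SE). It varied little within HEN (11.7 ± 1.2 FPKM, SD, n = 3), and HEN replicate 1 alone differed from LEN by 0.57.

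Of the fibulins, EFEMP1 was the most abundant, at 75.8, 124 and 99.5 FPKM among the HEN ovaries and 89.2, 88.6 and 78.5 FPKM among the LEN ovaries, which overlap. FBLN5, which binds elastin and is needed for elastic fibres in mice, reached 23.2, 9.03 and 9.13 FPKM across the HEN ovaries, with 21.6, 23.4 and 32.95 FPKM across the LEN ovaries, a difference of -0.98 ± 0.40 (SE). HEN replicate 1 lay within the LEN range and the other HEN ovaries below it. FBLN1 was highest in HEN replicate 2 at 41.5 FPKM and between 10.9 and 20.8 FPKM elsewhere. FBLN2 stayed between 14.5 and 23.7 FPKM. FBLN7, whose position overlaps that of ANAPC1, stood at 1.93, 3.28 and 0.829 FPKM for HEN and at 1.23, 0.381 and 0.294 FPKM for LEN. EMILIN3 was at 9.09, 0 and 0.0246 FPKM in the HEN ovaries and 10.2, 3.94 and 5.92 FPKM in the LEN ovaries. It is the member of this class that came closest to absence in HEN replicates 2 and 3. Against the LEN mean, EMILIN2 and EMILIN3 thus lay on opposite sides in both of these libraries.

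Decorin was the most abundant of the 47 genes. DCN (ENSAPLG00000013984, scaffold KB742595.1 from 146737 to 184440), which binds collagen and the growth factor TGF-beta, had HEN levels of 231, 351 and 213 FPKM and LEN levels of 205, 191 and 134 FPKM. All HEN values exceeded all LEN values by a small margin, with means of 265 ± 75.0 and 177 ± 37.7 FPKM (SD, n = 3 each). The difference was 0.57 ± 0.28 (SE), with an adjusted p of 0.249 in limma. It was 0.41 without HEN replicates 2 and 3 and 0.65 without HEN replicate 1.

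Lumican, a close relative that also coats collagen fibrils, lies 23.4 kb from DCN on the same strand, with no other gene of the table between them. LUM reached 24.4, 106 and 66.5 FPKM across the HEN ovaries, with 24.1, 23.1 and 14.2 FPKM across the LEN ovaries, a difference of 1.44 ± 0.53 (SE). HEN replicate 1 was nearly level with LEN replicate 1, and the margin between the groups rested on it. The ratio of DCN to LUM was 9.46, 3.30 and 3.20 in HEN and 8.30 to 9.44 in LEN, so the neighbours did not keep a fixed proportion. LUM took 19.1% and 15.8% of the class sum in HEN replicates 2 and 3, against 5.09% to 6.61% elsewhere.

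The other small leucine-rich proteoglycans did not separate the groups. OGN stood at 133, 38.4 and 91.4 FPKM for HEN and at 102, 72.1 and 43.95 FPKM for LEN, with a HEN library at each end of the range. PRELP, thought to anchor basement membranes to the tissue beneath, was at 68.7, 52.8 and 42.6 FPKM in the HEN ovaries and 58.9, 47.97 and 61.4 FPKM in the LEN ovaries. ASPN, which carries no glycosaminoglycan chain, was highest in HEN replicate 1 at 15.3 FPKM and lowest in LEN replicate 3 at 3.27 FPKM. FMOD, a collagen-binding protein of tendon, had HEN levels of 6.71, 0.326 and 0.623 FPKM and LEN levels of 4.17, 7.48 and 4.09 FPKM. Its HEN replicate 1 was within the LEN range and the other HEN libraries far below. ASPN and OGN lie 32.0 kb apart on scaffold KB743814.1 with OMD between them, and all 3 overlap the position of CENPP, so that fragments could be shared if strand was not used in counting.

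Versican and its link protein gene HAPLN1 lie 47.5 kb apart on opposite strands of scaffold KB742627.1. VCAN reached 5.29, 4.99 and 8.45 FPKM across the HEN ovaries, with 3.77, 4.01 and 1.93 FPKM across the LEN ovaries, a difference of 0.78 ± 0.34 (SE). All HEN ovaries exceeded all LEN ovaries, and the difference was 0.61 without HEN replicates 2 and 3. HAPLN1, which clamps versican to hyaluronan, stood at 0.437, 5.98 and 0.684 FPKM for HEN and at 0.216, 0.419 and 0.136 FPKM for LEN. Its high value was that of HEN replicate 2, and HEN replicate 1 exceeded LEN replicate 2 by less than 3 fragments on a transcript of 1 kb. HAPLN4 reached 2.49 FPKM in HEN replicate 3 and at most 0.156 FPKM elsewhere. HAPLN2 was listed at 0.371 FPKM there and at 0 in the other libraries. Neither was tested, as both means were under 1 FPKM.

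Syndecans differed between relatives. SDC4 (ENSAPLG00000003767, scaffold KB743547.1 from 23897 to 30621), a coreceptor of integrins in focal adhesions, was at 21.8, 94.9 and 70.8 FPKM in the HEN ovaries and 15.4, 17.3 and 6.98 FPKM in the LEN ovaries. Every HEN ovary exceeded every LEN ovary, with a difference of 2.01 ± 0.59 (SE), the largest positive one among the tested genes, and an adjusted p of 0.226 in limma. The difference was 0.77 without HEN replicates 2 and 3. SDC2, the syndecan of fibroblasts and endothelium, had HEN levels of 75.7, 221 and 168 FPKM and LEN levels of 53.3, 73.3 and 45.0 FPKM, a difference of 1.32 ± 0.42 (SE). Here HEN replicate 1 exceeded LEN replicate 2 only narrowly.

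SDC3, the syndecan of the nervous system, had the reverse order in those libraries. It reached 57.5, 6.94 and 8.92 FPKM across the HEN ovaries, with 33.8, 45.1 and 23.8 FPKM across the LEN ovaries. HEN replicate 1 was the highest and the other HEN ovaries the lowest, so that the difference of -1.04 ± 0.74 (SE) became 0.78 without HEN replicates 2 and 3. SDC1, an epithelial and plasma cell syndecan, stood at 22.98, 70.3 and 28.4 FPKM for HEN and at 28.9, 24.9 and 31.8 FPKM for LEN, high in HEN replicate 2 alone. The ratio of SDC2 to SDC3 was 1.32, 31.8 and 18.8 in HEN and 1.58, 1.62 and 1.90 in LEN. SDC3 held 1.77% and 3.24% of the syndecan sum in HEN replicates 2 and 3, against 22.1% to 32.3% elsewhere.

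**Figure D3:**
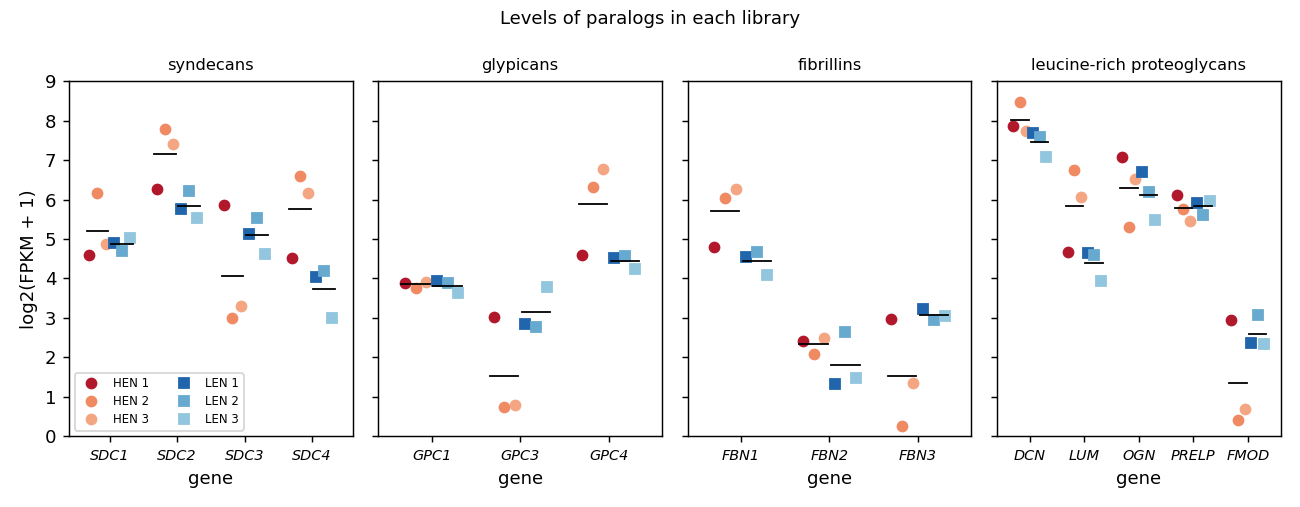
Points give log2(FPKM + 1) of each library for relatives within 4 families (circles HEN, squares LEN), and black lines the mean of each group of 3. SDC2, SDC4, GPC4, FBN1 and LUM are high in HEN 2 and HEN 3 while SDC3, GPC3, FBN3 and FMOD are low there, and GPC1 and PRELP vary less between libraries.

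The glypicans repeated that contrast. GPC4 (scaffold KB747086.1 from 22919 to 61559), a cell surface glypican, had levels of 23.2, 78.7 and 109 FPKM in the HEN ovaries and 21.7, 22.7 and 17.9 FPKM in the LEN ovaries, a difference of 1.46 ± 0.54 (SE). HEN replicate 1 exceeded LEN replicate 2 only narrowly, and the difference was 0.16 without HEN replicates 2 and 3. GPC3, a regulator of Hedgehog signalling whose loss causes overgrowth in human, had HEN levels of 7.20, 0.666 and 0.724 FPKM and LEN levels of 6.25, 5.85 and 12.8 FPKM, a difference of -1.62 ± 0.67 (SE). Its HEN replicate 1 lay within the LEN range, and the difference was -0.11 without HEN replicates 2 and 3. The ratio of GPC4 to GPC3 was 3.22, 118 and 151 in HEN and 1.39 to 3.89 in LEN. GPC1 differed least of the family, at a mean of 13.5 ± 0.851 FPKM for HEN and 13.2 ± 1.54 FPKM for LEN (SD, n = 3 each).

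GPC5 and GPC6 were low in all ovaries and were not tested. GPC5 reached 0.539, 0.182 and 0.188 FPKM across the HEN ovaries, with 0.639, 0.896 and 0.708 FPKM across the LEN ovaries. GPC6 stood at 0.0391, 0.0396 and 0.0408 FPKM for HEN and at 0.232, 0.374 and 0.202 FPKM for LEN. In both genes every HEN value lay below every LEN value. The matrilins, filament proteins of cartilage, were also low and were not tested. MATN3 did not exceed 0.473 FPKM, MATN4 0.752 FPKM and MATN1 0.139 FPKM in any library. The MATN1 levels, the HEN levels of GPC6 and MATN3 in HEN replicate 2 (0.0808 FPKM) lie under that of 3 fragments on a transcript of 1 kb. Differences below it were not resolved at this depth, and the margins between the groups for GPC5 and MATN3 were below it.

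**Figure D4:**
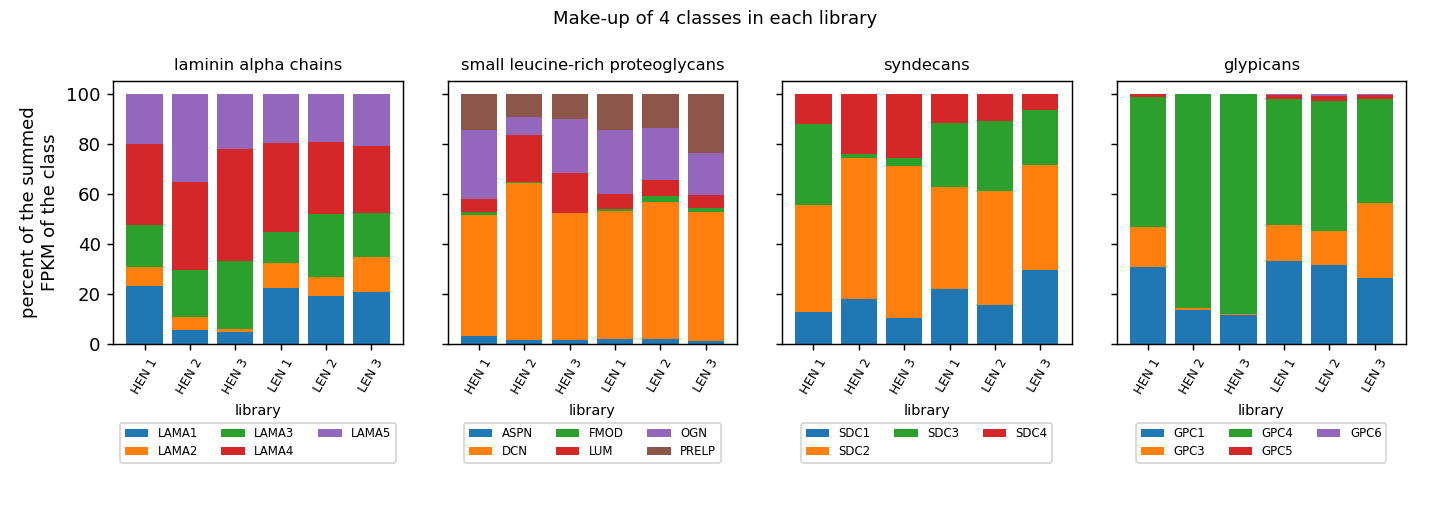
Bars stack the share of each gene, in percent of the summed FPKM of its class, for 4 classes in each of the 6 libraries. The shares of LAMA1, SDC3 and GPC3 shrink in HEN 2 and HEN 3, those of LUM, SDC4 and GPC4 grow, and DCN keeps 48.2% to 63.0% of its class in all libraries.

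Summed over the class, the small leucine-rich proteoglycans stood at 479, 557 and 420 FPKM among the HEN ovaries and 402, 349 and 261 FPKM among the LEN ovaries. The syndecans summed to 178, 393 and 276 FPKM among the HEN ovaries and 131, 161 and 108 FPKM among the LEN ovaries. For both classes the HEN sums exceeded the LEN sums, and DCN and SDC2 held the largest share of their class in every library. The same order of sums held for the elastic fibre genes, at 227 to 288 FPKM in HEN and 191 to 214 FPKM in LEN. It held for glypicans (44.8 to 124 against 43.0 to 43.7 FPKM) and for versican with its link proteins (5.73 to 11.99 against 2.07 to 4.425 FPKM). All 47 genes together summed to 1206 to 1505 FPKM in HEN and 745 to 1027 FPKM in LEN. The 11 laminin chains summed to 211, 145 and 284 FPKM among the HEN ovaries and 185, 183 and 103 FPKM among the LEN ovaries, which overlap. By class, the median difference was -0.02 for laminin alpha, 0.23 for beta and 0.65 for gamma chains, and -0.56 for nidogens and agrin. It was 0.35 for the elastic fibre genes, 0.37 for the small leucine-rich proteoglycans, 0.82 for syndecans and 0.04 for the 3 tested glypicans. Several class medians changed sign between settings. The laminin alpha median was 0.24, 0.23 and 0.29 after upper quartile, trimmed mean and quantile scaling. With library weights it was -0.12 for beta chains, -0.15 for small leucine-rich proteoglycans and -0.04 for glypicans. Without HEN replicates 2 and 3 it was 0.13 for alpha chains, -0.01 for beta chains and 0.46 for nidogens and agrin.

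Genes that work with these matrix proteins were described from 6 lists. None of their members passed the test across all transcripts in limma. Their counts at an unadjusted p under 0.05 stand beside 5.10% higher and 16.9% lower over all transcripts, and those after upper quartile scaling beside 9.21% and 12.9%. The 1 FPKM filter was reached only through the HEN levels by OMD and PRG4, which count as higher, and only through the LEN levels by NDST4 and ITIH4, which count as lower. The receptors of laminin and basement membrane had 9 of 14 listed genes in the table and a median difference of 0.10 over the 8 tested. Of these, 0 were higher and 0 lower at an unadjusted p under 0.05, and 2 and 0 after upper quartile scaling. The integrin subunit ITGB1, a receptor of laminin and many other ligands, differed by 0.87 ± 0.37, ITGA1 by 1.00 ± 0.46 and ITGB4, the hemidesmosome subunit, by -0.60 ± 0.37 (SE). For each of these integrin genes the groups overlapped. Without HEN replicates 2 and 3 the differences were 0.21 for ITGB1, 0.20 for ITGA1 and -0.11 for ITGB4. Of 15 tested basement membrane partners, from 21 listed, 4 were higher and 1 lower, with a median of 0.10, and 6 and 1 after upper quartile scaling.

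Of the partners, 3 chains of collagen IV, the network collagen of basement membranes, had the smallest p. COL4A2, one of its main chains, was at 108, 127 and 347 FPKM in the HEN ovaries and 63.5, 83.1 and 40.3 FPKM in the LEN ovaries, a difference of 1.48 ± 0.49 (SE). As for LAMC1, HEN replicate 3 was the highest and LEN replicate 3 the lowest, but here the groups did not overlap. COL4A1, whose position overlaps an unnamed gene, differed by 1.97 ± 0.57 and COL4A5 by 0.93 ± 0.32 (SE), also without overlap. Without HEN replicates 2 and 3 these differences were 0.84 for COL4A2, 1.27 for COL4A1 and 0.58 for COL4A5. Other chains differed less, COL4A3 by 0.10 ± 0.30 and COL4A6 by 0.74 ± 0.33 with overlap, and COL4A4 by 0.29 ± 0.23 without (SE). The partner counted as lower was FREM2, at -1.32 ± 0.49 (SE). Its groups did not overlap, but the difference was -0.22 without HEN replicates 2 and 3.

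Among 14 tested genes of elastic fibre assembly, from 21 listed, 4 were higher and 0 lower at an unadjusted p under 0.05, with a median of 0.39, and 6 and 0 after upper quartile scaling. The crosslinking enzyme LOX had HEN levels of 10.9, 55.9 and 39.1 FPKM and LEN levels of 7.04, 10.2 and 6.41 FPKM, a difference of 1.79 ± 0.57 (SE). LOXL2, of the same enzyme family, differed by 1.67 ± 0.41 and MFAP2, a microfibril protein that binds fibrillin, by 0.72 ± 0.26 (SE). For all 3 genes each HEN ovary exceeded each LEN ovary. MFAP2, like ELN, had its highest level in HEN replicate 1, at 22.2 FPKM.

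Of 38 tested genes of glycosaminoglycan chain synthesis, from 46 listed, 3 were higher and 3 lower. The split was 7 and 2 after upper quartile or trimmed mean scaling and 9 and 2 after quantile scaling. Their median was -0.01, and it was 0.18 after upper quartile, 0.17 after trimmed mean and 0.32 after quantile scaling. CSGALNACT1, which starts chondroitin sulfate chains, differed by 1.31 ± 0.37 (SE). B3GALT6, which builds the linker of heparan and chondroitin sulfate chains, differed by -1.02 ± 0.36 and the chondroitin sulfotransferase gene CHST12 by -1.07 ± 0.41 (SE). The groups overlapped for CHST12 but not for CSGALNACT1 and B3GALT6. Without HEN replicates 2 and 3 the differences were 0.66 for CSGALNACT1, -0.36 for B3GALT6 and -0.27 for CHST12. Of 19 tested genes of heparan sulfate and hyaluronan turnover, from 29 listed, 6 were higher and 2 lower, with a median of 0.27, and 7 and 1 after upper quartile scaling. CEMIP, a protein of hyaluronan breakdown, reached 4.87, 31.9 and 33.95 FPKM across the HEN ovaries, with 3.27, 3.33 and 1.10 FPKM across the LEN ovaries, a difference of 2.48 ± 0.73 (SE). The hyaluronan receptor gene LYVE1 differed by 1.91 ± 0.52 and SULF2, which removes sulfate from heparan sulfate, by 1.35 ± 0.43 (SE). Without HEN replicates 2 and 3 the differences were 0.79 for CEMIP, 0.78 for LYVE1 and 0.49 for SULF2.

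Of 12 tested other proteoglycans and leucine-rich repeat proteins, from 22 listed, 3 were higher and 2 lower, and 4 and 1 after upper quartile scaling. Their median was 0.60 and was close to 0 without HEN replicates 2 and 3. PODN, a leucine-rich repeat protein whose position overlaps SCP2, stood at 32.2, 100.1 and 105 FPKM for HEN and at 22.95, 31.7 and 26.7 FPKM for LEN, a difference of 1.35 ± 0.46 (SE). OMD, which lies between ASPN and OGN, differed by 1.15 ± 0.39, and the testican gene SPOCK1 by -1.08 ± 0.33 (SE). SPOCK1 was lower in each HEN ovary than in any LEN ovary, at 3.96, 1.5 and 3.18 FPKM against 7.37, 6.23 and 7.04 FPKM.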

How the data were processed

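The authors deposited FPKM values, as the name of their table states, for 17191 rows of Ensembl duck transcripts with scaffold positions, of which 22 repeated another row and were dropped. Per the labels' protocols, TRIzol RNA went into standard Illumina libraries. Aligner, counting tool, strandedness and genome build are not given in the sources used here; coordinates are those of the table. Groups and replicate numbers came from sample titles. Members were matched by the table's symbol, list genes also by Entrez identifier through a RefSeq table. The members and lists were chosen with earlier results of these data known.

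HEN and LEN were compared on log2(FPKM + 1), which understates changes of low genes, with limma 3.58.1 in R 4.3.3 (two-sided moderated test with trend, group as the only term, Benjamini-Hochberg adjustment over 13328 transcripts that averaged 1 FPKM or more, threshold 0.05), tested on simulated data. SE are those of limma. Depth was inferred from short noncoding genes, whose 133 to 183 values per library were all whole multiples of 1 fragment within 0.02. Fragment limits cover counting error only. Values in every library are given for the 12 members of highest mean, the 12 of smallest p and the highest and lowest of each class except the matrilins. For the matrilins mainly the highest levels are given. Others were added after their values were seen, and 3 genes per list were named by smallest p. The counts, medians and class sums cover all members, but 1 tested member is not reported here by itself. An exact permutation test of 3 against 3 cannot give a two-sided p below 0.1 and was not used. The 20 alternatives covered pseudocounts, filters, scalings, limma settings, the replicate block, summed rows and left-out libraries.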

Additional observations from a re-analysis of the deposited data

How the results depend on the processing

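No tested matrix gene passed an adjusted p under 0.05 in limma except with library weights (18 of 40) and without HEN replicate 1 (15 of 40). Leaving out 1 library at a time, the count passing was 0 to 15 over the matrix genes and 0 to 6501 over all transcripts, and that at an unadjusted p under 0.05 was 1 to 18, against 11 with all libraries. That count was 18 without HEN replicate 1, 2 without HEN replicate 2 or 3, 5 without LEN replicate 1 or 2 and 1 without LEN replicate 3. Without HEN replicates 2 and 3 it was 2, and 1 of all transcripts passed. With weights it was 19, and 7922 of all transcripts passed. With a pseudocount of 0.1 or rescaling to TPM, 1 of all transcripts passed. The median over the matrix genes was 0.48 after upper quartile and 0.47 after trimmed mean scaling, and -0.017 with weights, against 0.19 in the values as deposited, and 0.03 to 0.22 on leaving out 1 library.

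Directions turned for some named genes, none of which passed in either setting. PRELP was 0.24, 0.23 and 0.18 after upper quartile, trimmed mean and quantile scaling, and LAMB3 was 0.28 after quantile scaling. With weights LAMA4 was -0.16, LAMB1 -0.12 and OGN -0.42. Without HEN replicates 2 and 3, AGRN was 0.77, NID1 0.24, EFEMP1 -0.17, FMOD 0.34, PRELP 0.30, SDC1 -0.29 and SDC3 0.78. On leaving out 1 library, LAMA4 ranged from -0.21 to 0.32, OGN from -0.21 to 0.67, PRELP from -0.23 to 0.11 and SDC1 from -0.14 to 0.64. The cause was not tested.

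With the replicate number as a block (replicate block), 0 matrix genes passed and 11 had an unadjusted p under 0.05. The labels do not state that the numbers pair ducks. Deviations from the group means correlated at 0.0168, 0.382 and -0.423 across genes for pairs 1, 2 and 3. Between HEN and LEN libraries of unlike number they correlated at -0.492 to 0.461. Deviations within a group of 3 sum to 0, so these values cannot decide whether ducks were paired.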
